A study of Mus musculus with 3 samples.

Results

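Hox genes encode homeodomain transcription factors, and those of the mouse lie in 4 clusters, A to D, on separate chromosomes. Their expression was examined in adult renal corpuscle, where blood is filtered into the nephron across a tuft of capillaries covered by podocytes. Genes were taken by symbol, as Hox followed by a cluster letter from a to d and a paralog number, and a probe set was used only where the platform annotation gave it 1 gene. This gave 37 genes, each with 1 probe set, of 19938 genes measured in all. Cluster A held 10 of them and clusters B, C and D held 9 each. Hoxb8 was covered only by a probe set shared with Hoxb7 and has no value of its own.

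The series held 3 arrays of 1 group, wild-type adult CD-1 males (an outbred stock) of 7 to 9 weeks. Each array was hybridized with total RNA from a pool of approximately 2 kidneys, and the labels do not say that pools came from different animals, so the spread between arrays may be partly technical. Minced tissue was digested with collagenase A (0.5%, 15 minutes, 37 °C), and the corpuscles were collected on filters of 100, 70 and 40 µm before 1 round of whole transcript amplification. There was no other tissue, treatment or genotype to compare with, and the single question the design allows is which Hox genes gave signal above background.

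Within a cluster the Hox genes are numbered from the 3′ end to the 5′ end, and genes of the same number in different clusters are paralogs that arose by duplication of 1 ancestral cluster. In the embryo, genes of low number are switched on early and act far forward in the body, in the hindbrain and branchial arches, while genes of high number act toward the tail, in the limbs and in the urogenital region. Many adult tissues keep a Hox pattern that reflects the body level from which they came, and the Hox11 paralogs are required together for the metanephric kidney to form.

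The deposited values were log2 signals. Background was set on each array as the 95th percentile of 1212 olfactory and vomeronasal receptor probe sets, genes not known for wide use in kidney, and lay at 6.90, 6.96 and 6.92 on replicates 1, 2 and 3, which are linear signals of 119, 124 and 121. A gene was called detected where its log2 signal minus background was above 0 (limma, one-sided, Benjamini-Hochberg adjusted p under 0.05). Levels below are given as log2 signal on replicates 1, 2 and 3 in that order, and "above background" is always a log2 difference averaged over the arrays. Probe sets differ in how brightly they hybridize. The same background was subtracted from every gene of an array, which does not remove this difference. Levels compared between genes or lists, and calls near background, may therefore partly reflect the probe sets. Many deposited values were the same on several arrays to the last decimal, and a spread of 0 is therefore not an error of 0.

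The tissue label was checked with marker genes. All 9 measured podocyte markers, all 10 endothelial markers and all 9 mesangial and pericyte markers were detected, with median levels of 4.54, 4.00 and 3.34 above background. Markers of other parts of the kidney were also present: 9 of 10 for proximal tubule (median 0.65), 5 of 7 for the loop and distal tubule (1.40) and 6 of 11 for collecting duct (0.21). Within these lists, levels ran from -0.39 to 3.68 (Kap), from -0.62 to 2.46 (Calb1) and from -0.95 to 0.99 (Atp6v1g3). Over all genes, 58.9% were detected, with a median of 0.37. The interstitial and stromal list had 6 of 9 detected, with a median of 0.98. In bulk RNA of this kind, a low signal from few cells and a low signal from every cell cannot be told apart.

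Of the 37 Hox genes, 26 (70.3%) were detected, beside 58.9% of all genes. The median Hox gene lay 0.87 above background, beside 0.37 for all genes. Detected Hox genes lay 0.28 to 2.23 above background with a median of 1.04, or a linear signal of 250. The 11 undetected Hox genes lay between -1.32 and 0.0088. On single arrays, 27, 26 and 27 Hox genes exceeded background, and Hoxa3 was the gene that crossed it on some arrays and not on others. Signals were moderate: 24 Hox genes exceeded a linear signal of 150 on every array (51.3% of all genes did), 2 exceeded 500 (17.2% of all genes) and none exceeded 1000 (7.59% of all genes). The study names these levels for raw signals in GeneSpring, in its work on sorted podocytes. The summary method of the values used here is not given, so the scales may differ.

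**Figure D1:**
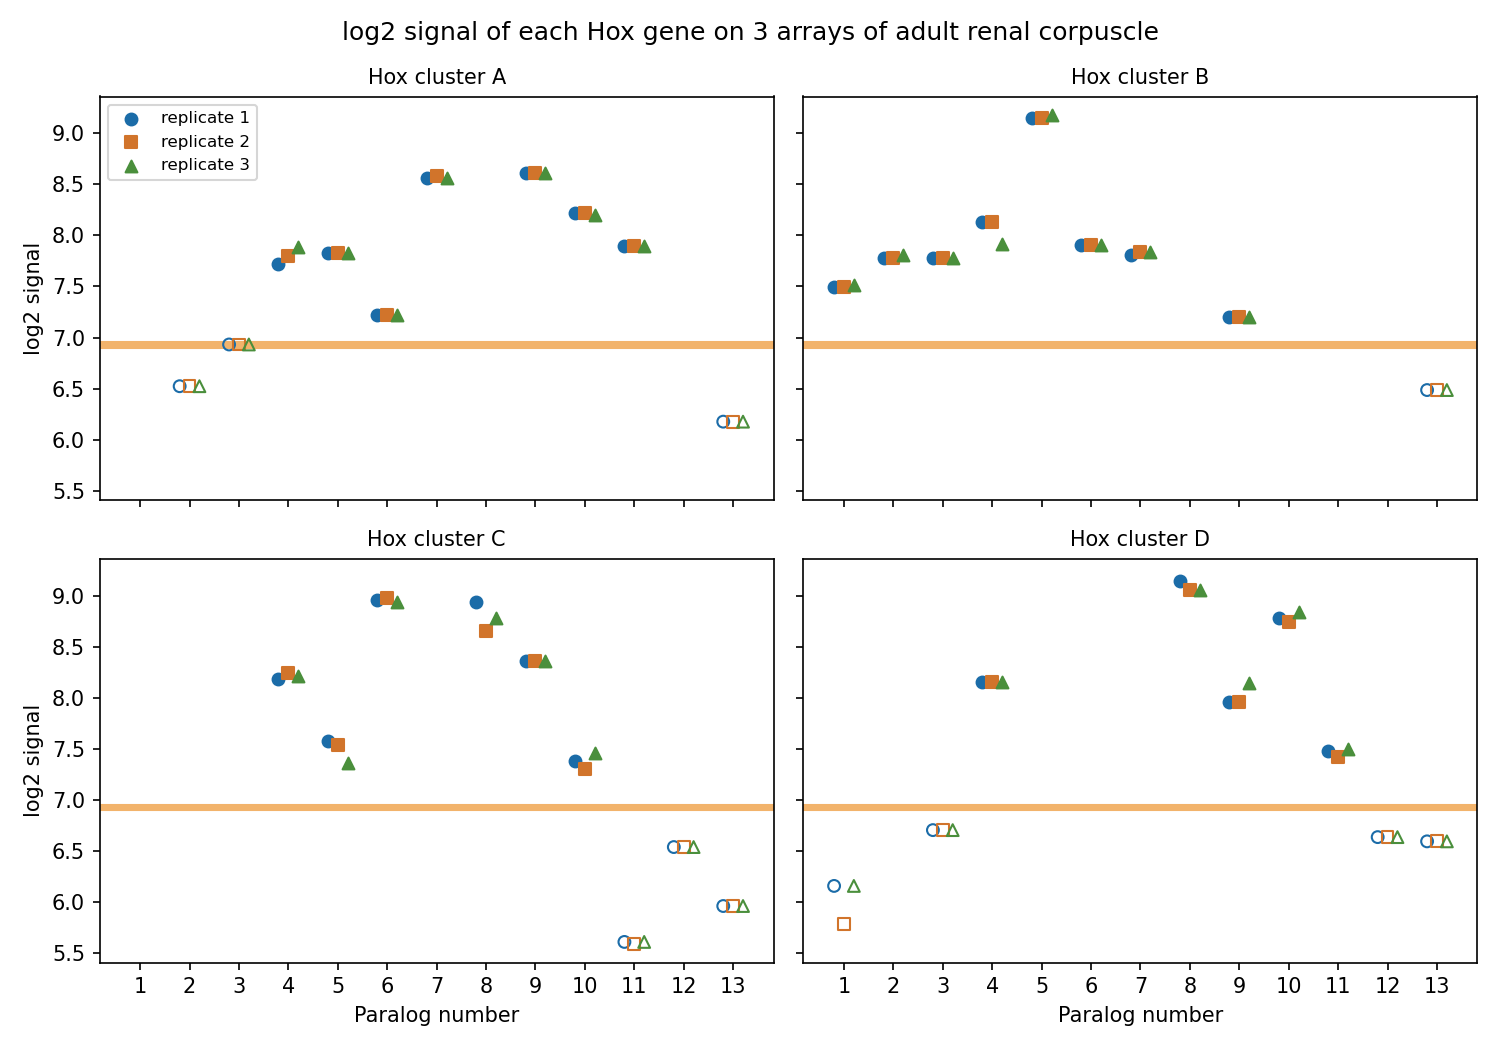
Log2 signal (y axis) of each Hox gene by paralog number (x axis), 1 panel for each cluster and 1 point for each of the 3 arrays, filled for detected and open for undetected genes. Every gene numbered 4 to 10 lies above the orange band, which is the range of background over the arrays (6.90 to 6.96), and every gene numbered 12 or 13 lies below it.

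The detected genes formed 1 unbroken block in each cluster when the measured genes were placed in the order of their paralog numbers. A gene whose annotated span contains others was also placed by its number. The blocks of clusters A and C were broken, at Hoxa6 and Hoxc5, with the 99th percentile of the receptors or a linear signal of 150 as background. In cluster A (chromosome 6), 7 consecutive genes from Hoxa11 to Hoxa4 were detected, with Hoxa13 undetected on the 5′ side and Hoxa3 and Hoxa2 undetected on the 3′ side. In cluster B (chromosome 11), 8 consecutive genes from Hoxb9 to Hoxb1 were detected and only Hoxb13 was not. In cluster C (chromosome 15), 6 genes from Hoxc10 to Hoxc4 were detected and the 3 genes 5′ of them, Hoxc11, Hoxc12 and Hoxc13, were not. In cluster D (chromosome 2), 5 genes from Hoxd11 to Hoxd4 were detected, flanked by 2 undetected genes on each side. The shares detected were 70.0% in A, 88.9% in B, 66.7% in C and 55.6% in D, so the share in D was below that of all genes. Median levels above background were 0.89, 0.87, 0.57 and 0.54. The blocks shared a core and differed at their ends: cluster B ran down to paralog 1 where A and D stopped at paralog 4, and clusters A and D ran up to paralog 11 where C stopped at 10. Cluster C has no member below paralog 4, and cluster B has none between 9 and 13.

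By paralog number, all 21 measured genes numbered 4 to 10 were detected (median 1.23 above background), and 19 of them exceeded a linear signal of 150. Of the 7 genes numbered 1 to 3, 3 were detected, all in cluster B. Of the 3 Hox11 genes, 2 were detected. None of the 6 genes numbered 12 and 13 was detected by limma, nor at an unadjusted p under 0.05 (0 of 6), and their levels ran from -0.96 to -0.29, below background on every array. The numbers group genes by ancestry and position and took no part in the calls.

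**Figure D2:**
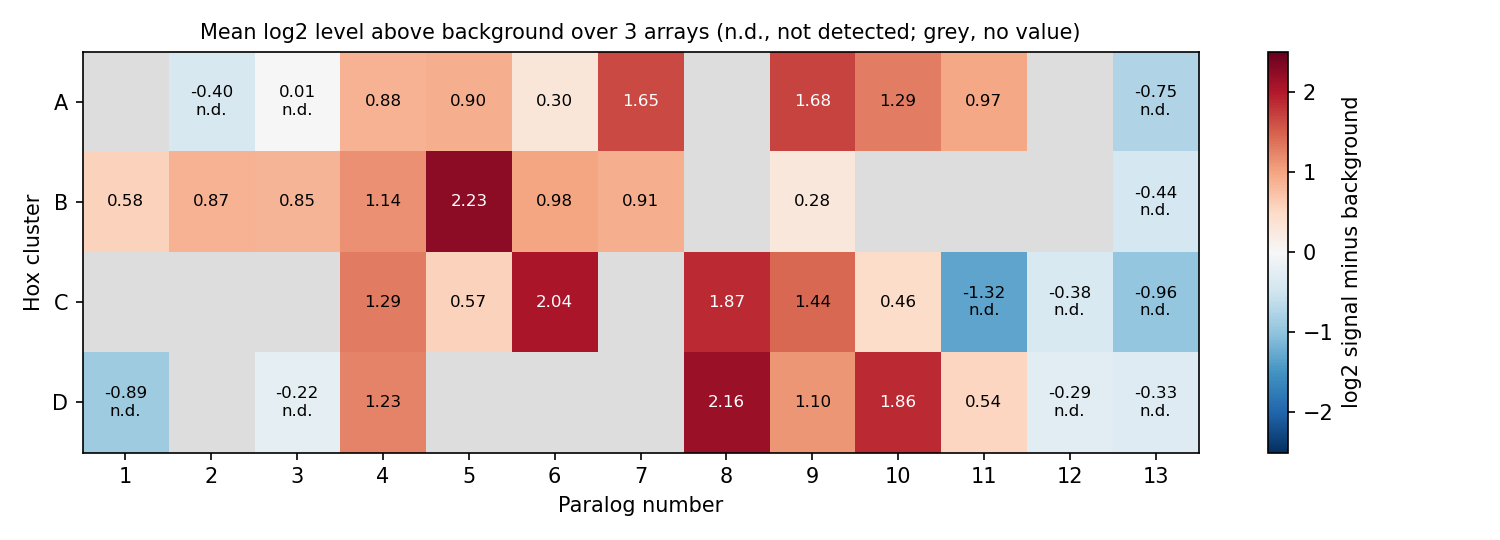
Mean log2 level above background over 3 arrays for each Hox gene, with clusters as rows and paralog numbers as columns (red above background, blue below, n.d. not detected, grey no gene or no probe set of its own). Detected genes fill columns 4 to 10 in every cluster that has a measured gene there, and cluster B adds columns 1 to 3.

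Genes numbered 1 to 3 act in the hindbrain, cranial nerves and branchial arches of the embryo. Hoxb1, which sets the identity of a hindbrain segment, gave 7.50, 7.50 and 7.51 (0.58 above background). Hoxb2 gave 7.78, 7.78 and 7.80 (0.87), and Hoxb3 gave 7.78 on each array (0.85). All 3 lay above background on each array. The paralogs in the other clusters did not. Hoxa2, which patterns the second branchial arch, read 6.52 on each array (-0.40), and Hoxd3 read 6.71 on each array (-0.22). Hoxa3, which is needed for thymus and parathyroid, read 6.93 on each array, above background on replicates 1 and 3 and 0.023 below it on replicate 2. Hoxd1 read 6.16, 5.79 and 6.16 (-0.89), low on replicate 2 and well under background on each array.

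The paralog 4 genes act at cervical and upper thoracic levels, and all 4 were detected, each above background on every array. Hoxa4 gave 7.72, 7.80 and 7.89 (0.88 above background), with 3 values that differed by more than those of most Hox genes. Hoxb4, known for its effect on blood stem cells, gave 8.13, 8.13 and 7.92 (1.14) and was lowest on replicate 3. Hoxc4 gave 8.19, 8.24 and 8.21 (1.29), and Hoxd4, which patterns cervical vertebrae, gave 8.15 on each array (1.23). The paralog 5 genes ranged more widely above background, and all 3 were detected. Hoxb5 gave 9.15, 9.15 and 9.18, linear signals of 567, 567 and 580, and lay 2.23 above background, over 500 on every array. Hoxa5, needed for lung development, gave 7.83 on each array (0.90). Hoxc5 gave 7.58, 7.53 and 7.36 (0.57), lowest on replicate 3.

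Paralogs 6 to 8 act at thoracic level, and all 7 measured members were detected. Hoxc6 gave 8.96, 8.98 and 8.94 (2.04 above background), which put its linear signals, 499, 504 and 491, on both sides of 500. Hoxb6 gave 7.90 on each array (0.98). Hoxa6 gave 7.22 on each array (0.30), a linear signal of 149, and was 1 of the 2 detected Hox genes under 150. Hoxb7 is best known in the kidney, since its promoter is widely used to drive transgenes in the ureteric bud and collecting duct. It gave 7.81, 7.84 and 7.84 (0.91), and Hoxa7 gave 8.57, 8.59 and 8.57 (1.65). The probe set that Hoxb7 shares with Hoxb8 gave 7.66 on every array, 0.73 above background, and does not tell the 2 genes apart. Both measured paralog 8 genes lay well above background. Hoxd8 gave 9.14, 9.06 and 9.06, linear signals of 565, 532 and 532, 2.16 above background. Hoxc8, which patterns thoracic vertebrae and motor neurons, gave 8.94, 8.65 and 8.78 (1.87; SD 0.15, n = 3), linear signals of 492, 402 and 439, and was highest on replicate 1. Hoxc4, Hoxc6 and Hoxc8 are among the transcription factors that the study lists for podocytes.

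Paralogs 9 and 10 mark the trunk from the lower thoracic to the lumbar level, and all 7 were detected. Hoxa9, a regulator of blood progenitors, gave 8.61 on each array (1.68 above background). Hoxc9, which sets thoracic motor neuron identity, gave 8.36 on each array (1.44). Hoxd9 gave 7.96, 7.96 and 8.14 (1.10), highest on replicate 3. Hoxb9 was the other detected gene under 150, with 7.20 on each array (0.28), a linear signal of 147. The Hox10 paralogs are required for lumbar vertebrae and act in the stroma of the developing kidney, and all 3 were above background on each array. Hoxa10 gave 8.22, 8.22 and 8.20 (1.29), Hoxd10 gave 8.78, 8.74 and 8.84 (1.86) and Hoxc10 gave 7.38, 7.30 and 7.46 (0.46).

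The Hox11 paralogs split. Hoxa11 gave 7.90 on each array (0.97 above background) and Hoxd11 gave 7.48, 7.42 and 7.50 (0.54), and both were detected. Hoxc11 gave 5.61, 5.59 and 5.61 and lay -1.32 relative to background, under it on every array. In the embryonic kidney, Hox11 proteins act with Eya1 and Pax2 in the metanephric mesenchyme to turn on Six2 and Gdnf. Of 9 genes listed as partners or targets, 5 (55.6%) were detected, with a median of 0.27 above background, beside 58.9% and 0.37 for all genes. Those detected were Itga8 (4.81), Foxd1 (4.40), Wt1 (3.87), Sall1 (0.86) and Pax2 (0.27). Itga8 and Wt1 are also mesangial and podocyte markers, and the study reports high Foxd1 expression in adult podocytes. The others on the list, Six2 (-0.55), Osr1 (-0.65), Eya1 (-0.12) and Gdnf (-0.013), were not detected, and Gdnf lay close to background.

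Genes numbered 12 and 13 act at the far end of the trunk, in digits, hindgut and genital tubercle. Each of the 6 gave 1 value on all 3 arrays, below background on each. Hoxd12 read 6.64 on each array (-0.29 relative to background). Hoxd13, a digit and genital regulator, read 6.60 on each array (-0.33), and Hoxa13, which acts beside it in the limb and hindgut, read 6.18 on each array (-0.75). Hoxb13 and Hoxc13 are known outside the kidney, in prostate and in hair and nails. They read 6.49 on each array (-0.44) and 5.96 on each array (-0.96), and Hoxc12 read 6.54 on each array (-0.38).

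The calls depended on where background was set. With the 99th percentile of the receptors as background, 20 Hox genes were detected (54.1%, beside 41.7% of all genes), and Hoxa6, Hoxb1, Hoxb9, Hoxc5, Hoxc10 and Hoxd11 lost their call. With a fixed linear signal of 150 there were 22 (59.5%, beside 50.2%), without Hoxa6, Hoxb9, Hoxc5 and Hoxc10. In both settings Hoxa6 and Hoxc5 were lost between detected neighbours, and the other genes lost lay at an end of their block. With the median of the receptors, all 37 were called, beside 90.4% of all genes. The same 26 genes were detected in each other setting run, including each fit with 1 array left out. Part of this was fixed in advance. Each Hox gene had 1 probe set, so the mean of probe sets could not change its value. For the 18 Hox genes with the same value on 3 arrays, leaving out an array did not change the signal.

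**Figure D3:**
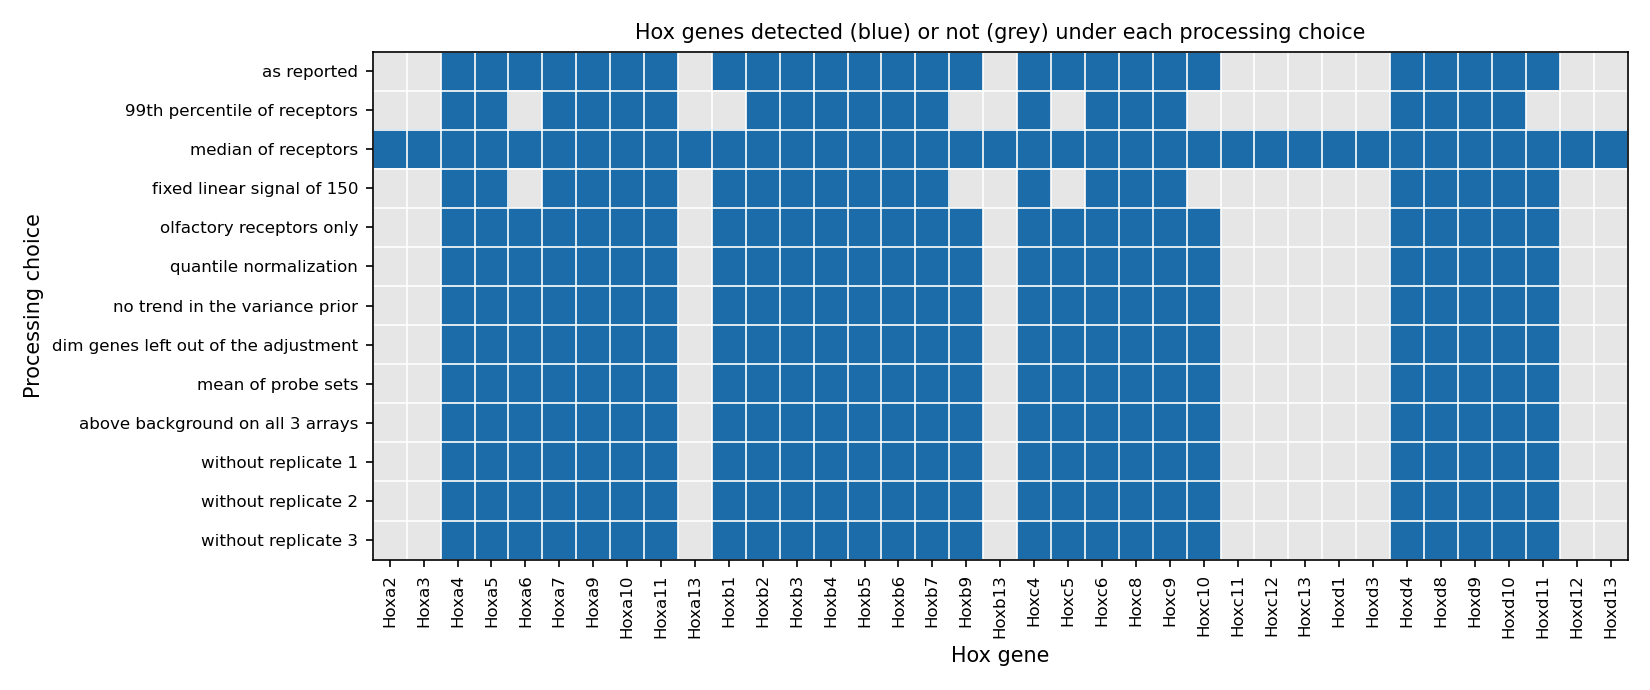
Detection of each of the 37 Hox genes (columns, ordered by cluster and number) under each processing choice (rows), with blue for detected and grey for not detected. Only the 3 rows with another background level differ from the top row, with 20, 37 and 22 genes detected in place of 26.

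The Hox clusters also hold microRNA genes and noncoding RNAs. Of 11 other probe sets that lie within the clusters, 3 were above background on all 3 arrays, those for Mir615 (8.56 on each array, 1.64 above background), Mir196b (7.08 on each, 0.16) and 1 of the 2 probe sets for Hoxd3os1 (8.49, 8.47 and 8.23, 1.48). The other Hoxd3os1 probe set lay at -0.17, and Hoxaas2 was above background on 2 arrays (6.95 on average). Mir10a (3.51), Mir10b (3.43), Mir196a-1 (5.72) and Mir196a-2 (5.47) gave signals below background on each array, as did the noncoding genes 5730596B20Rik (6.75) and Haglr (6.25). Whether such a probe set read the mature microRNA or the longer transcript it is cut from was not tested. Mir615 lies inside the span of Hoxc5, which was itself detected.

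The mature microRNAs are shown because the 5p arms of the 5 loci outside Hoxc5 have only 2 seeds. Each seed belongs to 1 microRNA family that the clusters carry at more than 1 locus. Both families include microRNAs that repress Hox messages. Sequences are those of RefSeq on GRCm38.p6, 5′ to 3′, with the seed (bases 2 to 8) in capitals.
miR-10a-5p (chr11:96317186-96317208, cluster B): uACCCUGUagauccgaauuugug
miR-10b-5p (chr2:74726074-74726096, cluster D): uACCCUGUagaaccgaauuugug
miR-196a-5p (from clusters B and C): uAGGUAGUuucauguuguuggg
miR-196b-5p (chr6:52230129-52230150, cluster A): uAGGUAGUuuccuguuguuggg
miR-615-3p (chr15:103014969-103014990, cluster C): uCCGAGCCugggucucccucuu
The miR-10 pair share 1 seed and the miR-196 pair another, while the seed of miR-615-3p is its own among these. The probe sets above background were those named for Mir196b and Mir615, and neither miR-10 locus had one.

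Promoter sequence was available for 21 of the 37 Hox genes, as 23 windows of 300 bases around the annotated start (RefSeq, GRCm38.p6). Hox promoters are known for dense CpG dinucleotides, the sites of DNA methylation, and these windows held a median of 15 CpG, beside 7 for all 32851 windows of the mouse table. The 16 windows of 14 detected genes had a median of 13 CpG (4 to 29), and the 7 windows of 7 undetected genes had a median of 20 (9 to 45). The ranges overlapped, with Hoxa5 at 29 among detected genes and Hoxa2 at 9 among undetected ones. No test was made between them.

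The promoters of the detected gene farthest above background and of the paralog 13 gene are shown for clusters A and D, where both were available, because they show the spread in CpG content. CpG dinucleotides are in capitals, and each sequence reads 5′ to 3′ on the strand of the gene.
Hoxa9 promoter (chr6:52227321-52227620, minus strand): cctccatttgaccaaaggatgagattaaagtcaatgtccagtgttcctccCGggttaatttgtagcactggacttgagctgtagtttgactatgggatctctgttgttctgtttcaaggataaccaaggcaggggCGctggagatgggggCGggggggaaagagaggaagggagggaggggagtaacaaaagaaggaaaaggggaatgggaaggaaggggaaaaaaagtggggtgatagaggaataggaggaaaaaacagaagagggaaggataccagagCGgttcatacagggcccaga
Hoxa13 promoter (chr6:52260831-52261130, minus strand): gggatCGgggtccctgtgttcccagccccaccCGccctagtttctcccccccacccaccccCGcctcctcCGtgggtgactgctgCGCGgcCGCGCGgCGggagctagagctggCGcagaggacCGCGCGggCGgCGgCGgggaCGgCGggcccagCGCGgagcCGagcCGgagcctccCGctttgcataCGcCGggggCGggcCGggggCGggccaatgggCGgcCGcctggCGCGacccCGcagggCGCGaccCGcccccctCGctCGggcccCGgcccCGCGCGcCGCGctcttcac
Hoxd8 promoter (chr2:74704365-74704664, plus strand): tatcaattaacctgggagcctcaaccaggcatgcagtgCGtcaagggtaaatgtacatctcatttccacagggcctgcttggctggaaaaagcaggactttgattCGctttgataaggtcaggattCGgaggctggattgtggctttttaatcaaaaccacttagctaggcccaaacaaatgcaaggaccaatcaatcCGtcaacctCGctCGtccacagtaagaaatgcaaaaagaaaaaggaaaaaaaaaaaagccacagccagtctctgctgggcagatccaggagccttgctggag
Hoxd13 promoter (chr2:74667975-74668274, plus strand): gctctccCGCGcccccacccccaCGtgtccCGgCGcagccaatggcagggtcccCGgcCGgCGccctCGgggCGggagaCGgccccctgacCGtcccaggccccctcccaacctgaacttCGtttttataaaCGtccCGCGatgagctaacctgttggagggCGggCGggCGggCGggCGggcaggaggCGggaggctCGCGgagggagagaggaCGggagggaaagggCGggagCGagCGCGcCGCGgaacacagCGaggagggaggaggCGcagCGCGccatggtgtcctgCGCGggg
The windows of Hoxa9 and Hoxd8 held 4 and 6 CpG, and those of Hoxa13 and Hoxd13 held 45 and 37. Short motifs were searched on both strands. The CCAAT box was in 60.9% of Hox windows and 37.4% of all windows, and the TATA box TATAAA in 3 of the 23 Hox windows and 13.6% of all. The nuclear receptor motif AGGTCA, part of retinoic acid response elements, was in 30.4% and 16.3%. The Cdx motif TTTATG, which overlaps the reverse complement of TATAAA in all but its last letter, was in 17.4% and 11.9%, and the PBX-HOX motif TGATTNAT was in 8.70% and 3.22%.

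Transcripts of neighbouring Hox genes overlap, and the sources used here do not place the probes within them. The annotated span of Hoxa3 contains Hoxa4, Hoxa5 and Hoxa6, that of Hoxb3 contains Hoxb4, that of Hoxd3 contains Hoxd4, and Hoxd11 overlaps Hoxd10. Antisense genes overlap Hoxa3, Hoxd3, Hoxa5, Hoxa6, Hoxa11, Hoxb2, Hoxb3, Hoxb5 and Hoxb6. Values of these genes may include signal of the overlapping transcript. Hoxa3 and Hoxd3 were undetected while the genes inside their spans were detected.

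Few Hox genes had values that differed on every array. Of the 37 genes, 18 (48.6%) had the same value on 3 arrays and 11 (29.7%) on 2, beside 54.2% and 27.5% of all genes. The 8 genes with 3 different values, Hoxa4, Hoxc4, Hoxc5, Hoxc6, Hoxc8, Hoxc10, Hoxd10 and Hoxd11, were all detected, had a median SD of 0.065 and did not share an order of arrays: replicates 1, 2 and 3 were highest for 2, 2 and 4 of them and lowest for 2, 4 and 2. The widest range among detected genes was that of Hoxc8, 0.29. Hoxd1, which was undetected, had a range of 0.37.

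**Figure D4:**
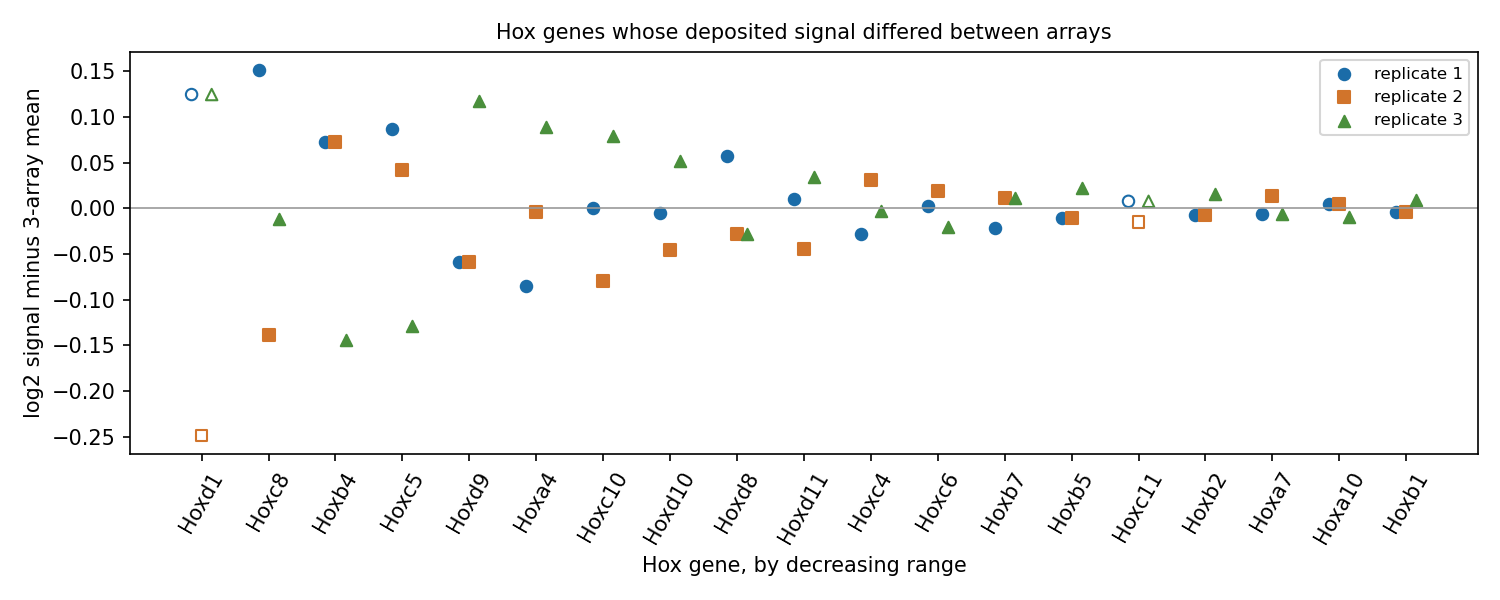
Log2 signal minus the mean of the 3 arrays (y axis) for the 19 Hox genes whose values were not all the same, in order of decreasing range (x axis), with 1 symbol for each array and open symbols for undetected genes. Hoxd1 on replicate 2 has the largest deviation, and no array is high or low throughout.

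Hox proteins bind DNA together with homeodomain cofactors of the TALE class, the Pbx, Meis and Pknox proteins. All 8 measured TALE genes were detected, with a median of 0.99 above background, beside 58.9% and 0.37 for all genes. Meis2 gave 10.81, 10.68 and 10.59 (3.77 above background; SD 0.11, n = 3), the only one of them over a linear signal of 1000. Pbx2 lay 2.19 above background, Meis1 1.39, Pbx3 1.36, Meis3 0.61, Pknox2 0.52, Pbx4 0.40 and Pknox1 0.31.

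Polycomb proteins keep Hox genes silent and Trithorax proteins keep them active through opposing marks on histone H3. All 14 Trithorax genes were detected (median 2.20 above background), among them Dpy30 (3.93), Kmt2d (3.64), Kmt2a (2.94), the gene first known for its control of Hox expression, and Ash2l (2.66). Of 26 Polycomb genes, 24 were detected (median 1.36), among them Rbbp7 (4.29), Phc3 (3.99), Bmi1 (3.13) and Mtf2 (2.77), while Pcgf6 (0.053) and Phf19 (-0.22) were not. Over all genes, 58.9% were detected, with a median of 0.37.

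Retinoic acid switches on Hox genes of low number in the embryo, and Cdx proteins act on the central ones. Of 17 genes of retinoic acid signalling, 13 (76.5%) were detected, with a median of 0.55 above background, beside 58.9% and 0.37 for all genes. Farthest above background were the retinaldehyde reductase Dhrs3 (3.79), the retinol dehydrogenase Rdh10 (1.96) and the receptors Rarg (1.70) and Rarb (1.45). Of the degrading enzymes, Cyp26b1 (0.54) was detected, while Cyp26c1 (-0.14) and Cyp26a1 (-1.20) were not. The receptor Rxrg (-0.84) was not detected. Of the 6 Cdx and ParaHox genes, Cdx1 alone was called (6.90, 7.15 and 7.37, 0.22 above background), with its signal on replicate 1 at the level of background. The call was lost without replicate 3, when the limma fit called 0 of the 6, and without replicate 2 the count was 2. Cdx2 (-0.15) and Cdx4 (-2.55) were not detected.

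Of 65 homeobox genes of other families, 21 (32.3%) were detected, with a median of -0.15, beside 70.3% and 0.87 for the Hox genes. No test was made between the lists. Those farthest above background were Hhex (2.92), a regulator of liver and endothelium, Hlx (1.12), Lmx1b (1.09), a podocyte regulator, and Nkx6-2 (1.08). Barx1 (0.027), Dlx3 (0.011) and Prrx2 (0.0073) were the undetected genes nearest to background.

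Genes that flank the clusters were in part detected and in part not. Of 12 on the flanking list, 7 (58.3%) were detected, with a median of 0.24 above background. This share is close to that of all genes, 58.9%, whose median was 0.37. Skap2 (3.15) borders cluster A on the side of the undetected Hoxa2, and Evx1 (-0.19), itself a homeobox gene, borders the Hoxa13 end. Cluster B lies between Ttll6 (-1.33) and Skap1 (-0.25), neither of which was detected, although 8 of its 9 measured Hox genes were. Cluster C is flanked by Calcoco1 (1.72) at its undetected 5′ end and by Smug1 (0.17) at its 3′ end. Cluster D lies between Evx2 (0.024, undetected), next to Hoxd13, and Mtx2 (1.35), next to Hoxd1.

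**Figure D5:**
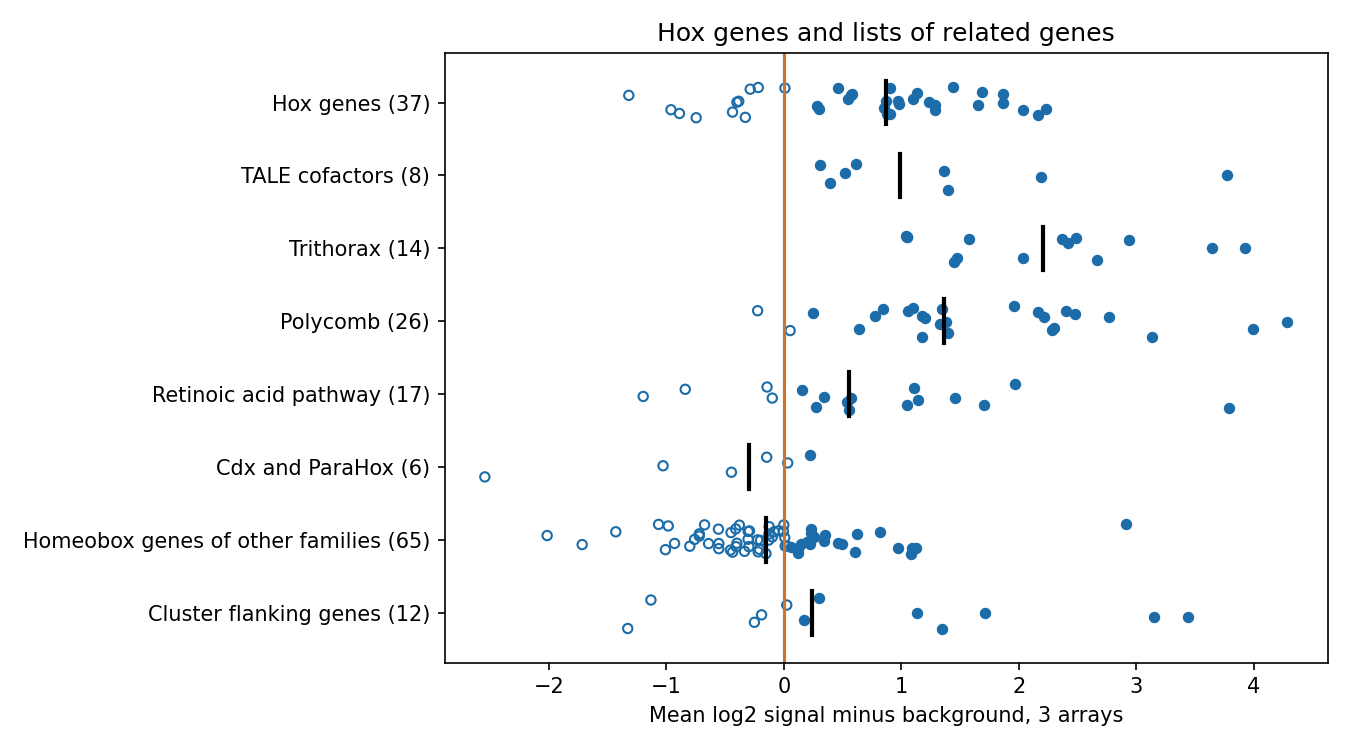
Mean log2 level above background over 3 arrays (x axis) of each gene in the Hox set and in 7 lists of related genes (y axis, number measured in parentheses), with filled points for detected genes, open points for undetected ones, a black bar at each median and an orange line at background. The medians are 0.87 for Hox genes, 2.20 for Trithorax, 1.36 for Polycomb, 0.99 for TALE cofactors and -0.15 for other homeobox families.

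Several kidney cell types outside the corpuscle are known to express Hox genes, so the levels of their markers are given here. Summed over its 11 genes, the log2 signal of the collecting duct list ran from 76.3 to 77.5 over the 3 arrays, with Atp6v1g3 at 0.99 above background, Aqp2 at 0.91, Aqp3 at 0.62, Avpr2 at 0.46, Hsd11b2 at 0.31 and Slc4a1 at 0.21, and with Aqp4 (-0.85), Scnn1b (-0.49) and Scnn1g (-0.95) undetected. For the interstitial and stromal list the sum over 9 genes ran from 67.1 to 67.3, with Pdgfra (2.25) and the collagen genes Col1a2 (1.30), Col1a1 (0.98) and Col3a1 (0.45) detected and the matrix genes Dcn (-0.85), Dpt (-2.17) and Lum (-2.65) undetected. This list shares Tcf21 with the podocyte list and Meis1 with the TALE list. Sums ran from 80.3 to 81.0 for the 10 proximal tubule genes and from 56.4 to 56.8 for the 7 genes of the loop and distal tubule. Within the latter, genes differed between arrays in opposite directions: Umod gave 8.77, 9.18 and 9.78, and Slc12a3 gave 8.53, 8.51 and 7.95. Those of the 7 smooth muscle genes (4 detected, median 1.26) ran from 51.7 to 53.4, and those of the 8 immune genes (5 detected, median 1.03) from 59.6 to 61.5. The 7 parietal epithelial genes, of which 6 were detected (median 0.45), summed to 56.5 to 56.8. The part of these cells in the Hox signals was not tested.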

How the data were processed

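Affymetrix arrays of 3 adult renal corpuscle samples (1 group) were read from 1 table of log2 signals for 35557 probe sets, which the authors deposited already summarized. Affymetrix Expression Console is the tool in the submitters' processing notes, and its method and settings are not given in the sources used here. Whether the summary made values alike between arrays was not tested. The values ran from 2.36 to 14.40, and array medians were 7.11, 7.11 and 7.09. Precision was limited by the number of arrays. The platform annotation gave 1 symbol for 21789 probe sets, several for 1621 and none for 12147. Those with several symbols were not used to name a gene, and a gene took its probe set with the highest mean, which gave 19938 genes. The current reference table changed 0 symbols. The table had 0 columns of other samples.

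Detection was tested with limma 3.58.1 (R 4.3.3; lmFit with an intercept, eBayes with a trend, one-sided, Benjamini-Hochberg over all 19938 genes, adjusted p under 0.05) on log2 signal minus background, the 95th percentile of 1212 receptor probe sets on each array. The fit was also run on simulated data drawn without tied values. That run cannot show how the calls behave with the ties found here. With 1 group no contrast between conditions could be made. P-values of single genes are not printed because tied values make their standard errors depend mainly on level. Tables were made with pandas 2.3.3 in Python 3.11.15. Every Hox gene is named, and of each list of related genes up to 4 detected members farthest above background and up to 3 undetected ones, while any member of a list of 9 or fewer could be named. Hsd11b2, Slc4a1 and Cyp26b1 were added after their values were seen. Members and lists were chosen with earlier results of these data known. Other settings tried were other background levels (the 99th percentile or the median of the receptors, or a linear signal of 150), olfactory receptors only, quantile normalization, eBayes without a trend, adjustment without dim genes, the mean of a gene's probe sets, a call by all 3 arrays with no test, and each replicate left out.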

Additional observations from a re-analysis of the deposited data

How the results depend on the processing

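With the 99th percentile of the receptors as background, the median Hox level above background was 0.23 in place of 0.87, and Hoxa6 (-0.34), Hoxb1 (-0.058), Hoxb9 (-0.36), Hoxc5 (-0.067), Hoxc10 (-0.18) and Hoxd11 (-0.094) fell below it. The lists then had 4 TALE, 7 retinoic acid, 0 Cdx and ParaHox and 6 other homeobox genes detected. With a linear signal of 150 the median was 0.56, Hoxa6 (-0.0096) and Hoxb9 (-0.026) fell below background, Hoxc5 (0.26) and Hoxc10 (0.15) lost their call, and 0 Cdx and ParaHox and 12 other homeobox genes were detected. With the median of the receptors the Hox median was 2.42 and 18031 genes were called in all, among them 9 in cluster D, 7 of paralogs 1 to 3, 16 of paralogs 9 to 13, 5 Cdx and ParaHox, 12 flanking, 63 other homeobox and 9 metanephric genes. With olfactory receptors only the Hox median was 0.83. The Cdx and ParaHox count was 0 to 2 with 1 replicate left out (0 without replicate 3, 2 without replicate 2). Among marker lists, collecting duct counts were 2, 3 and 11 with the 99th percentile, the linear signal of 150 and the receptor median, proximal tubule 4 and parietal epithelial 2 with the 99th percentile, and smooth muscle 7 and immune 8 with the receptor median. All other counts for clusters, paralog ranges and lists stayed within 1.5 times in the settings run, and the 26 Hox genes were the same in each setting with the background percentile unchanged. No paired analysis was possible because there was only 1 group.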

Other observations

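Part of the values that were the same on all 3 arrays lay close to whole numbers when the linear signal was multiplied by 3. In linear units, 3 times the signal on replicate 1 lay within 0.03 of a whole number for 14 of the 18 Hox genes with 1 value on all arrays (77.8%) and for 2 of the 8 with 3 different values (25.0%). Over all genes with a linear signal under 1000, the shares were 51.9% of 10510 and 20.7% of 2839. The undetected Hoxa2 read the same value, 6.52, as the homeobox gene Nkx2-3 (6.52), and each held it on every array.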
